A study of Gallus gallus with 20 samples.

Results

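Liver was compared with breast muscle (pectoralis major) in chickens of both raising systems of the study, to describe which genes and functions mark each tissue and which the tissues share. The libraries were chosen by their tissue label alone: 10 of liver and 10 of breast muscle, which are all 20 libraries of the series. The birds were mixed-sex KRC chickens, a name the labels do not spell out, with 125 chicks and 5 pens per raising system and a slaughter age of 91 days. The organic birds (5 libraries of each tissue) ate feed made of organic ingredients and could go out onto pasture from day 21. The conventional birds (5 libraries of each tissue), which are the control group in the labels, ate commercial feed and had no pasture. The labels give no genetic alteration. They do not say whether a liver and a muscle library came from the same bird, nor the sex or pen of a sampled bird. The p-values below therefore measure the spread between these libraries.

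The liver makes most of the proteins that circulate in blood, packs fat and cholesterol into lipoproteins, makes bile acids and glucose, and clears foreign compounds. In birds it is also the main site of fatty acid synthesis, and it turns waste nitrogen into uric acid rather than urea. Breast muscle of the chicken is a white, fast-contracting muscle that draws its energy for short bursts of work from stored glycogen, glycolysis and creatine phosphate. In whole tissue, fewer cells of a type and less RNA per cell cannot be told apart, so all values are levels of the tissue.

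Libraries held 14065269 to 20488526 counts in liver and 12699692 to 13417005 counts in breast muscle. The first principal component of the log counts separated the tissues and held 88.9% of the variance, against 1.31% for the second. Correlations of log counts were 0.953 to 0.977 among liver libraries, 0.956 to 0.978 among muscle libraries and 0.446 to 0.493 between the tissues. The tissue labels held. Defining hepatocyte genes such as ALB and APOB were at or near 0 in muscle, though APOA1 was not. Defining muscle fibre genes such as MYL1 and ACTA1 were at or near 0 in liver, as detailed below. Several single libraries stood apart from the others of their tissue. Organic liver library 4 had the lowest levels of fibrinogen and other secreted proteins, organic liver libraries 1 and 4 had the highest levels of FASN and ME1 (though not of every fatty acid synthesis gene), and conventional muscle library 1 had high levels of slow-fibre genes. Lists that rest on them were therefore also computed without organic liver library 4 or conventional muscle library 1.

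Levels are given in FPKM, the deposited counts per length of the gene and per library, so that genes can be compared with each other. Differences are log2 fold changes of liver over breast muscle with their standard error (SE), from edgeR's quasi-likelihood test over 14447 genes with raising system as covariate. A gene was called higher or lower at a Benjamini-Hochberg adjusted p of at most 0.05. Where a gene had 0 counts in all 10 libraries of a tissue, the ratio of pooled, depth-scaled counts is given as a bound computed against 3 counts over those libraries. Where it had 1 to 3 counts, the ratio is given with its 95% interval. Such bounds and intervals cover counting error only.

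Most of the measured transcriptome differed between the tissues. Of 14447 genes tested, 6124 were higher in liver (42.4%) and 5641 were lower in liver (39.0%), so that 81.4% were called in either direction. The median log2 fold change over all genes tested was 0.07. All 10 liver libraries lay above all 10 muscle libraries for 3567 genes (24.7%), and below them for 3505 genes (24.3%). A stricter class was used for genes that mark a tissue: called, at least 4-fold different, and at a mean of at least 1 FPKM in the higher tissue. By it 2180 genes marked liver (15.1%) and 1843 marked breast muscle (12.8%). Shared genes were those at a mean of at least 1 FPKM in each tissue whose 95% interval of the difference lay within 2-fold in either direction, and they numbered 4328 (30.0%).

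The marking genes carried much of the transcriptome of their tissue, which their choice by level in these same libraries favours. In liver libraries, liver-marking genes held 42.0% to 55.3% of the summed FPKM and muscle-marking genes 1.54% to 2.0%. In muscle libraries, liver-marking genes held 1.41% to 1.97% and muscle-marking genes 54.1% to 60.7%. Shared genes held 20.1% to 24.4% in liver and 18.6% to 22.0% in muscle. The 10 most abundant genes of a library, mitochondrial genome included, held 23.7% to 30.5% of the FPKM in liver and 25.0% to 30.2% in muscle. With the mitochondrial genome left out, they held 20.6% to 24.6% in liver and 26.9% to 32.3% in muscle, without overlap. Of the liver-marking genes 169 had no count in any muscle library, and of the muscle-marking genes 101 had no count in any liver library. At a mean of at least 1 FPKM in liver and under 0.1 FPKM in breast muscle stood 536 genes, and 455 genes showed the reverse.

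**Figure D1:**
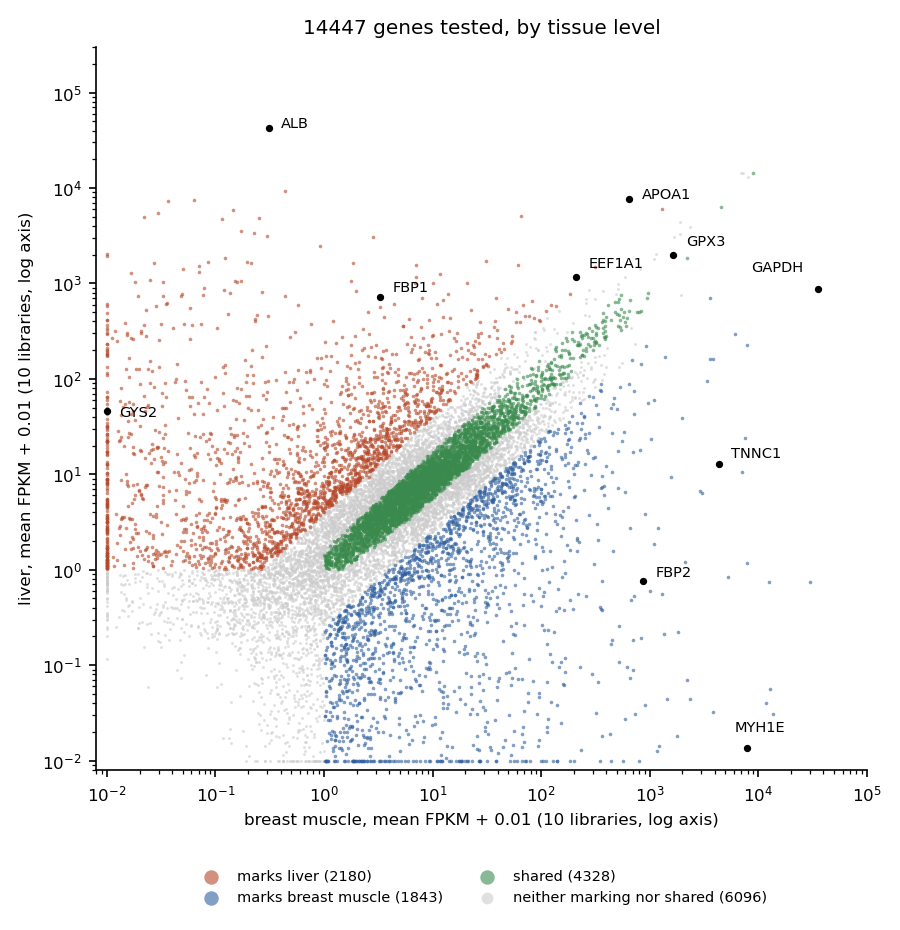
Mean FPKM of each gene tested in liver (vertical axis) and breast muscle (horizontal axis), both log axes after adding 0.01, with 10 libraries per tissue and colours for the class of the gene. ALB and MYH1E lie at opposite corners, while GPX3 and other shared genes follow the diagonal and APOA1 is high in liver at 7606 FPKM yet still at 645 FPKM in muscle.

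Plasma proteins were among the most abundant messages of the liver, and nearly all were close to the limit of detection in muscle. Of 18 tested genes of the plasma protein list, 16 were higher and 2 lower in liver, with a median log2 fold change of 14.68. Summed over the list, liver libraries held 54900 to 95448 FPKM and muscle libraries 19.3 to 30.7 FPKM. ALB, which encodes serum albumin, the main carrier protein of blood (chromosome 4, 50822578 to 50848867, plus strand), had 30493 FPKM in the lowest, 40488 in the median and 57853 in the highest liver library, against 0, 0.255 and 0.840 FPKM in muscle. Every liver library thus stood far above every muscle library, and the log2 fold change was 17.12 ± 0.37 (SE, adjusted p = 2.63e-18). TTR, the thyroid hormone carrier transthyretin, had 3549, 5457 and 11090 FPKM in liver (lowest, median, highest), against 0, 0 and 0.599 FPKM in muscle. Its groups were again far apart, with a log2 fold change of 15.27 ± 0.60 (SE, adjusted p = 1.35e-18).

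GC, the vitamin D binding protein, had 1445 to 2634 FPKM in liver and no count in muscle, which makes it at least 133000-fold higher in liver. ORM1, an acute phase glycoprotein, had 715617 counts over the liver libraries and 2 over the muscle libraries, a ratio of 281000 (95% interval 77800 to 2320000). AvBD9, an avian beta-defensin with antimicrobial activity, was also at 0 in all muscle libraries and at least 56000-fold higher in liver. It was the least even of these genes, with 214 FPKM in the lowest, 1365 in the median and 7282 in the highest liver library. The list's 2 members against the trend were FGL1, a fibrinogen-like liver protein of mammals, at 0.417 FPKM in liver and 5.79 FPKM in muscle, and HPS5. HPS5 is a subunit of a complex that forms lysosome-related organelles and not a plasma protein.

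All 19 genes tested of the clotting protein list were higher in liver, with a median log2 fold change of 12.84, or 12.70 with the 3 members that had no muscle count set to their bound. The list summed to 14697 to 39933 FPKM in liver and 9.96 to 18.9 FPKM in muscle. The chains of fibrinogen, the precursor of the clot fibre, led it. FGB (chromosome 4, 20308597 to 20315123, plus strand) had 4038 FPKM in the lowest, 9886 in the median and 13102 in the highest liver library, against 0.165, 0.409 and 0.814 FPKM in muscle. The groups did not overlap, and its log2 fold change was 14.42 ± 0.23 (SE, adjusted p = 1.31e-20). FGA and FGG lie beside it on chromosome 4 and had log2 fold changes of 17.98 ± 0.74 and 17.00 ± 0.53 (SE). The 3 fibrinogen genes were all lowest in organic liver library 4. Without that library all 19 members were still higher in liver, with a median of 12.92. PROS1, the protein C cofactor, had the smallest difference, at 76.1 FPKM in liver and 10.1 FPKM in muscle. The clotting proteins F13A1 and VWF, which were counted with the markers of thrombocytes and of endothelium, were lower in liver, with log2 fold changes of -2.99 and -1.36.

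Complement, the blood-borne part of innate immunity, followed the same pattern. All 17 components tested were higher in liver and 16 marked it, with a median log2 fold change of 10.07. The list summed to 3709 to 7153 FPKM in liver and 52.2 to 94.3 FPKM in muscle. C3, the central component, had 860 FPKM in the lowest, 1609 in the median and 2014 in the highest liver library, against 5.94, 6.48 and 9.40 FPKM in muscle. No muscle library came near the lowest liver library, and the log2 fold change was 7.79 ± 0.14 (SE, adjusted p = 4.39e-20). The terminal component C8A had no muscle count and was at least 31600-fold higher in liver, and MBL2, the mannose-binding lectin that starts the lectin pathway, had a log2 fold change of 11.90 ± 0.34 (SE). C7 stood out by its small difference, with 31.0 FPKM in liver and 12.1 FPKM in muscle.

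Among genes of lipoprotein assembly, 9 of 12 tested were higher and 2 lower in liver, with a median log2 fold change of 10.59 (10.58 with the member at 0 in muscle set to its bound). APOA1, the main protein of high-density lipoprotein, had 4351 FPKM in the lowest, 6915 in the median and 12791 in the highest liver library, against 253, 578 and 1284 FPKM in muscle. The tissues did not overlap, yet APOA1 was well above the floor in muscle, and its log2 fold change of 3.56 ± 0.24 (SE, adjusted p = 3.02e-11) was small beside those of its partners. In chickens APOA1 is known to be made by many tissues, muscle among them. APOC3, which slows the clearance of lipoproteins and lies next to APOA1 on chromosome 24, had 3402 FPKM in liver and 0.214 FPKM in muscle. APOB, the scaffold of very low density lipoprotein, had 613379 counts in liver and 2 in muscle, a ratio of 241000 (95% interval 66700 to 1990000). The members lower in liver were SAR1B, a coat protein of general vesicle transport, and APOO, which sits in the mitochondrial inner membrane, at 11.9 FPKM in liver and 22.4 FPKM in muscle.

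Of the yolk precursors, which the liver makes under oestrogen in laying hens, VTG1, VTG2 and APOV1 were nearly silent in these birds. Among the 5 genes matched, these were too low to be tested, and their means in liver were 0.0162, 0.00738 and 0.966 FPKM. RBP, which carries riboflavin into the egg, was higher in liver at 3.15 FPKM, against 0.234 FPKM in muscle. Its liver libraries ran from 0.543 to 11.2 FPKM and overlapped the highest muscle library at 0.710 FPKM. The other gene tested of this list counted as shared. All matched genes together summed to 9.37 to 23.8 FPKM in liver and 5.56 to 11.8 FPKM in muscle.

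The tested genes of bile acid handling and detoxification were all higher in liver. All 9 genes of bile acid synthesis and transport that were tested marked liver, with a median log2 fold change of 7.87. CYP7A1, the rate-limiting enzyme of bile acid synthesis, averaged 46.6 FPKM in liver and had no muscle count. The bile acid receptor NR1H4 had 39.2 to 85.5 FPKM in liver and a single count in muscle, a ratio of 11700 (95% interval 2100 to 463000). All 23 genes of xenobiotic metabolism also marked liver, with a median of 6.80, and summed to 2966 to 6015 FPKM in liver and 47.4 to 77.3 FPKM in muscle. CYP2C23a, a cytochrome P450, ran from 84.7 FPKM in the lowest liver library through a median of 299 to 712 in the highest. It was at 0 in every muscle library and at least 40400-fold higher in liver. CYP3A5 had 246, 602 and 1472 FPKM in liver and 2 counts in muscle. Cytochrome P450 genes have close copies, so reads may be split between members of a subfamily.

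Amino acid breakdown was a liver function by most of its genes. Of 28 tested, 24 were higher and 4 lower in liver, with a median log2 fold change of 8.54. HPD, of tyrosine breakdown, had 490 FPKM in the lowest, 698 in the median and 1058 in the highest liver library, against 0.0819, 0.325 and 1.41 FPKM in muscle. Its liver libraries were all far above muscle, with a log2 fold change of 10.84 ± 0.31 (SE, adjusted p = 2.71e-17). MAT1A, which makes the methyl donor S-adenosylmethionine, averaged 697 FPKM in liver and 7.97 FPKM in muscle, a log2 fold change of 6.47 ± 0.28 (SE). XDH, which forms uric acid, averaged 157 FPKM in liver and 0.175 FPKM in muscle. CPS1, the entry enzyme of the urea cycle in mammals, was low in both tissues at 0.892 FPKM in liver and 0.387 FPKM in muscle. GLUL, which makes the glutamine that feeds uric acid synthesis, differed little, with 128, 287 and 614 FPKM in liver and 21.5, 171 and 311 FPKM in muscle. These ranges overlapped, and the log2 fold change was 0.91 ± 0.34 (SE, adjusted p = 0.0187). The call was lost in organic birds alone (adjusted p = 0.0626) and in conventional birds alone (adjusted p = 0.0856). Among the members lower in liver were PRODH, of proline breakdown, at 0.794 FPKM in liver and 4.35 FPKM in muscle, and ASL2 at 1.15 FPKM in liver and 2.29 FPKM in muscle.

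Genes of glucose release were mostly higher in liver. Of 6 gluconeogenesis genes tested 5 were higher in liver, with a median log2 fold change of 8.70. G6PC, the enzyme that frees glucose for export, had 418, 781 and 1329 FPKM in liver (lowest, median, highest), against 0.0702, 0.233 and 0.694 FPKM in muscle, a log2 fold change of 11.58 ± 0.38 (SE, adjusted p = 3.57e-18). PCK1, the cytosolic phosphoenolpyruvate carboxykinase, was the most variable of the list. It had 152 FPKM in organic liver library 3, 0.322 to 15.9 FPKM in the other liver libraries, and at most 0.106 FPKM in muscle. The member called lower in liver, the glucose-6-phosphate carrier SLC37A4, had 78.8 to 127 FPKM in liver and 88.4 to 172 FPKM in muscle. Its call depended on the libraries and settings used: the adjusted p was 0.0269 with all libraries, 0.0573 without organic liver library 4 and 0.0536 without conventional muscle library 5, and it was also above 0.05 without organic liver library 3 or 5 or organic muscle library 1. It was 0.0538 with the replicate number as a block, 0.0921 with scaling by library totals and 0.474 in conventional birds alone.

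Fat synthesis was higher in liver, with large differences between liver libraries. Of 18 genes of fatty acid synthesis and desaturation, 14 were higher and 2 lower in liver, 13 marked liver, and the median log2 fold change was 3.82. ACLY, which makes the cytosolic acetyl-CoA used for it, had 72.2, 123 and 237 FPKM in liver and 2.53, 3.45 and 4.53 FPKM in muscle. The tissues were clearly apart, with a log2 fold change of 5.18 ± 0.16 (SE, adjusted p = 6.78e-17). Within liver, ACLY had 133 to 237 FPKM in the organic libraries and 72.2 to 112 FPKM in the conventional libraries. That difference between the systems was not tested here. THRSP, a small inducer of lipogenesis, spanned 71.9 to 1889 FPKM among liver libraries around a median of 171, and 0.0947 to 4.43 FPKM in muscle. ME1, which supplies the NADPH for fatty acid synthesis in birds, averaged 50.6 FPKM in liver and 35.9 FPKM in muscle and was not called. Its liver mean rested on organic libraries 1 and 4, at 261 and 94.8 FPKM. The other liver libraries had 8.99 to 47.7 FPKM, most of them below every muscle library (26.7 to 52.8 FPKM). The members lower in liver were DGAT2, an enzyme of the last step of triglyceride synthesis, at 2.24 FPKM in liver and 9.42 FPKM in muscle, and LPIN1, of an earlier step, at 2.96 FPKM in liver and 7.83 FPKM in muscle.

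Cholesterol synthesis showed 16 of 17 genes higher in liver and none lower, with a median log2 fold change of 4.42. HMGCS1, of an early step, had 289, 627 and 1294 FPKM in liver, against 11.2, 13.5 and 16.6 FPKM in muscle, a log2 fold change of 5.81 ± 0.21 (SE, adjusted p = 2.27e-15). The exception was FDFT1, which commits the pathway to sterols, at 45.5 FPKM in liver and 27.9 FPKM in muscle without a call. Fatty acid oxidation and ketone formation had 15 of 17 genes higher and 2 lower in liver, with a smaller median of 2.37. HADHB, of the mitochondrial trifunctional protein, had a log2 fold change of 2.44 ± 0.23 (SE). In the opposite direction, the ketone body dehydrogenase BDH1A had 1.10, 2.58 and 3.24 FPKM in liver and 25.5, 40.7 and 65.9 FPKM in muscle. All its liver libraries lay below all muscle libraries, with a log2 fold change of -4.01 ± 0.18 (SE, adjusted p = 2.80e-14).

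The transcription factors that define hepatocytes were also higher in liver, with 1 exception. Of 15 tested 14 marked liver, with a median log2 fold change of 8.96, or 7.50 with the 6 members at 0 in muscle set to their bounds. Among them were HNF4A, FOXA1, FOXA2, ONECUT1 and ONECUT2. They were expressed at modest levels: HNF4A averaged 17.0 FPKM and FOXA1 22.1 FPKM in liver. XBP1, which drives the secretory pathway, had 175, 281 and 481 FPKM in liver and 15.7, 23.2 and 63.3 FPKM in muscle, a log2 fold change of 3.47 ± 0.23 (SE, adjusted p = 2.82e-11). The oxysterol receptor NR1H3 was lower in liver by a small amount, at 39.3 FPKM in liver and 51.2 FPKM in muscle (log2 fold change -0.36 ± 0.11, SE), and counts as shared.

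Of the hormones and binding proteins the liver releases, 14 of 17 were higher in liver and none lower, with a median of 5.13. AGT, the precursor of angiotensin, had 135, 312 and 361 FPKM in liver and 2 counts over all muscle libraries, a ratio of 56500 (95% interval 15600 to 466000). IGFBP4, which binds insulin-like growth factors, had 230, 288 and 388 FPKM in liver and 15.1, 26.6 and 39.1 FPKM in muscle, a log2 fold change of 3.52 ± 0.15 (SE, adjusted p = 6.32e-15). The insulin receptor INSR and the leptin receptor LEPR were not called, at 11.2 and 0.337 FPKM in liver and 9.64 and 0.318 FPKM in muscle.

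Muscle was marked above all by its contractile proteins. Of 16 thick filament genes tested 15 were lower and 1 higher in liver, with a median log2 fold change of -12.78, or -12.49 with the 4 members at 0 in liver set to their bounds. The list summed to 2.30 to 3.28 FPKM in liver and 20121 to 31711 FPKM in muscle. MYH1E, a fast adult myosin heavy chain (chromosome 18, 564255 to 586932, minus strand), had 0, 0 and 0.0347 FPKM in liver and 5890, 7515 and 11532 FPKM in muscle. It had 3 counts over all liver libraries and 5735906 over all muscle libraries, so that muscle was 2430000-fold above liver (95% interval 833000 to 11800000). The other fast heavy chains of the cluster were far lower in muscle: MYH1C at 113 FPKM, MYH1A at 71.3 FPKM and MYH1D at 2.23 FPKM. These were chosen after their values were seen, and since the copies are nearly identical the split of reads between them is uncertain. MYL1, the fast essential light chain, had 0 to 0.156 FPKM in liver and 10846 to 17534 FPKM in muscle, a log2 fold change of -19.01 ± 0.73 (SE, adjusted p = 1.50e-21). The member higher in liver was MYH15, a heavy chain expressed at trace level in both tissues, at 0.354 FPKM in liver and 0.0565 FPKM in muscle.

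Thin filament genes gave 16 of 17 lower and 1 higher in liver, with a median of -9.74, and summed to 83.3 to 133 FPKM in liver and 64099 to 92795 FPKM in muscle. Among nuclear genes with a symbol in the table, ACTA1, skeletal muscle actin (chromosome 3, 40087452 to 40090517, minus strand), was second in muscle after the glycolytic gene GAPDH. It had 0.176, 0.453 and 2.60 FPKM in liver and 24109, 29884 and 37131 FPKM in muscle. The tissues were apart in every library, with a log2 fold change of -15.41 ± 0.32 (SE, adjusted p = 6.36e-18). The fast troponins TNNI2, TNNC2 and TNNT3, which make contraction depend on calcium, averaged 0.0459, 0.0298 and 0.737 FPKM in liver and 12746, 11763 and 12532 FPKM in muscle. The 3 subunits were thus at nearly the same level in muscle. The member higher in liver was TPM3, a tropomyosin also found outside muscle, at 20.3, 24.0 and 27.6 FPKM in liver and 10.3, 14.3 and 33.2 FPKM in muscle. Its ranges overlapped through conventional muscle library 1, and the log2 fold change was 0.62 ± 0.16 (SE, adjusted p = 0.00119), or 0.49 in conventional birds alone, where the call was lost (adjusted p = 0.12).

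All 21 genes of the Z-disc and of elastic proteins were lower in liver and marked muscle, with a median of -9.24 (-8.75 with 2 members at their bounds). Without conventional muscle library 1, 20 of the 21 were called lower in liver, with a median of -8.79. With limma on log2(FPKM + 1) 20 were called lower as well. ACTN2, the actinin that anchors thin filaments, had 0, 0.0187 and 0.151 FPKM in liver and 994, 1393 and 2272 FPKM in muscle, a log2 fold change of -15.30 ± 0.43 (SE). MYOZ1, which ties calcineurin to the Z-disc of fast fibres, averaged 0.204 FPKM in liver and 1363 FPKM in muscle. ANKRD1, a stretch-responsive protein, was the least even, with 297, 1281 and 2372 FPKM in muscle and 2 counts in liver. Its level in muscle was 317000-fold that in liver (95% interval 87800 to 2620000).

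Of 17 genes of excitation and calcium handling, 16 were lower and 1 higher in liver, with a median of -7.30 (-6.75 with 2 members at their bounds). CASQ2, a calcium store protein known in mammals from heart and slow muscle, had 1 count over all liver libraries and 947, 1072 and 1617 FPKM in muscle. SLN, the sarcolipin that inhibits the calcium pump, had 0 to 0.197 FPKM in liver and 688 to 1259 FPKM in muscle. CACNG1, a subunit of the calcium channel of the transverse tubules, had a log2 fold change of -13.22 ± 0.61 (SE, adjusted p = 4.80e-19). The member higher in liver was ATP2A2, the calcium pump of slow muscle and of non-muscle cells, at 10.7, 19.2 and 33.7 FPKM in liver and 2.90, 4.44 and 20.5 FPKM in muscle. The highest muscle value again came from conventional muscle library 1. The log2 fold change was 1.62 ± 0.30 with it and 2.06 without it. In conventional birds alone the log2 fold change was 1.05 and the call was lost (adjusted p = 0.0603).

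The neuromuscular junction list split. Of 10 genes 7 were lower and 1 higher in liver, with a median of -4.46. RAPSN and DOK7, which cluster acetylcholine receptors at the synapse, averaged 0.139 and 0.0519 FPKM in liver and 19.6 and 7.45 FPKM in muscle. MUSK, the kinase they act with, was low in both tissues and not called (1.15 FPKM in liver and 1.06 FPKM in muscle), and the agrin receptor LRP4, which is also known from other organs, was higher in liver at 6.40 FPKM, against 0.646 FPKM in muscle.

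Genes of fast energy supply marked muscle. Of 7 genes of creatine and adenylate metabolism 5 were lower and 1 higher in liver, with a median of -5.01. CKMT2, the mitochondrial creatine kinase of muscle, had 553, 772 and 1102 FPKM in muscle and no count in liver, which makes it at least 63800-fold lower in liver. AK1, which regenerates ATP from ADP, had 0.306 to 0.991 FPKM in liver and 947 to 1486 FPKM in muscle, a log2 fold change of -11.19 ± 0.19 (SE). GAMT, which completes creatine synthesis, ran the other way with 52.5 FPKM in liver and 25.1 FPKM in muscle. GATM, of the step before it, was not called, at 155 FPKM in liver and 110 FPKM in muscle.

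Of 16 glycolysis genes 11 were lower and 4 higher in liver, with a median of -4.26. GAPDH (chromosome 1, 77619214 to 77623350, plus strand) was the most abundant nuclear gene of muscle among those with a symbol in the table. It had 648, 804 and 1350 FPKM in liver and 22079, 35089 and 48767 FPKM in muscle. The groups were wide apart, and the log2 fold change was -5.34 ± 0.16 (SE, adjusted p = 5.41e-17). PKM, the pyruvate kinase of muscle, had 7.15, 11 and 13.2 FPKM in liver and 6161, 6984 and 9399 FPKM in muscle, a log2 fold change of -9.38 ± 0.13 (SE). Among the 4 members higher in liver were LDHB, PFKL and ENO1. In mammals LDHB is the heart form, while PFKL and ENO1 are known from liver or from many tissues. Of 17 glycogen genes 11 were lower and 5 higher in liver, with a median of -4.17. PGM1, which links glycogen to glycolysis, had 31.2, 91.8 and 174 FPKM in liver and 2976, 3357 and 4290 FPKM in muscle (log2 fold change -5.17 ± 0.20, SE). Branching enzyme GBE1 was among those higher in liver, at 100 FPKM in liver and 19.0 FPKM in muscle, and UGP2, which makes UDP-glucose, was at 184 FPKM in liver and 181 FPKM in muscle without a call.

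The regulators of muscle identity were all lower in liver: 20 of 20 genes of myogenic control and satellite cells, with a median of -7.29, or -6.76 with 6 members at their bounds. MYOD1 averaged 0.00397 FPKM in liver and 67.3 FPKM in muscle, and MYF6, MYF5, MYOG and PAX7 had no count in any liver library. PAX7, which marks satellite cells, was at 2.49 FPKM in muscle. VGLL2, a muscle cofactor, averaged 0.0279 FPKM in liver and 140 FPKM in muscle. SMYD1, a methyltransferase of the sarcomere programme, reached 21.1 FPKM in the highest liver library and had 129 to 361 FPKM in muscle.

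Homeobox genes of the HOX clusters, which set position along the body axis, were lower in liver or not called. Of 19 tested 16 were lower and none higher in liver, with a median of -5.37 (-5.25 with 3 members at their bounds). HOXA7 had 0.262, 0.515 and 0.869 FPKM in liver and 35.2, 45.1 and 54.1 FPKM in muscle, a log2 fold change of -6.33 ± 0.16 (SE, adjusted p = 4.80e-19). HOXA9 averaged 0.0434 FPKM in liver and 12.1 FPKM in muscle, and HOXA10 had no liver count. The 3 not called were HOXA2, HOXA4 and HOXB5, and HOXA4 had 2.36 FPKM in liver and 2.56 FPKM in muscle.

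Of 13 genes of muscle wasting and growth control 10 were lower and 1 higher in liver, with a median of -2.30. The ubiquitin ligases TRIM63 and FBXO32, which direct muscle protein breakdown, had 1.14 and 4.11 FPKM in liver and 311 and 160 FPKM in muscle. TRIM63 varied among muscle libraries, with 106, 362 and 512 FPKM. SESN1, which restrains growth signalling, had 62.4, 73.0 and 92.4 FPKM in liver and 309, 777 and 1195 FPKM in muscle, a log2 fold change of -3.23 ± 0.18 (SE). GDF8, the growth inhibitor myostatin, averaged 0.0104 FPKM in liver and 56.9 FPKM in muscle. IGF2, a growth factor, was higher in liver at 55.3 FPKM, against 5.57 FPKM in muscle.

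Collagen and matrix genes were mostly lower in liver: 18 of 22, with 3 higher and a median of -3.64. COL3A1 and COL1A1, of fibrillar collagen, averaged 22.3 and 7.18 FPKM in liver and 552 and 510 FPKM in muscle. SPARC, which binds collagen, had 34.9, 42.9 and 52.6 FPKM in liver and 398, 677 and 1132 FPKM in muscle (log2 fold change -4.05 ± 0.16, SE). The 3 members higher in liver were VTN and FN1, which the liver secretes into plasma, and COL14A1. VTN alone had 3545 FPKM in liver and 0.161 FPKM in muscle.

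**Figure D2:**
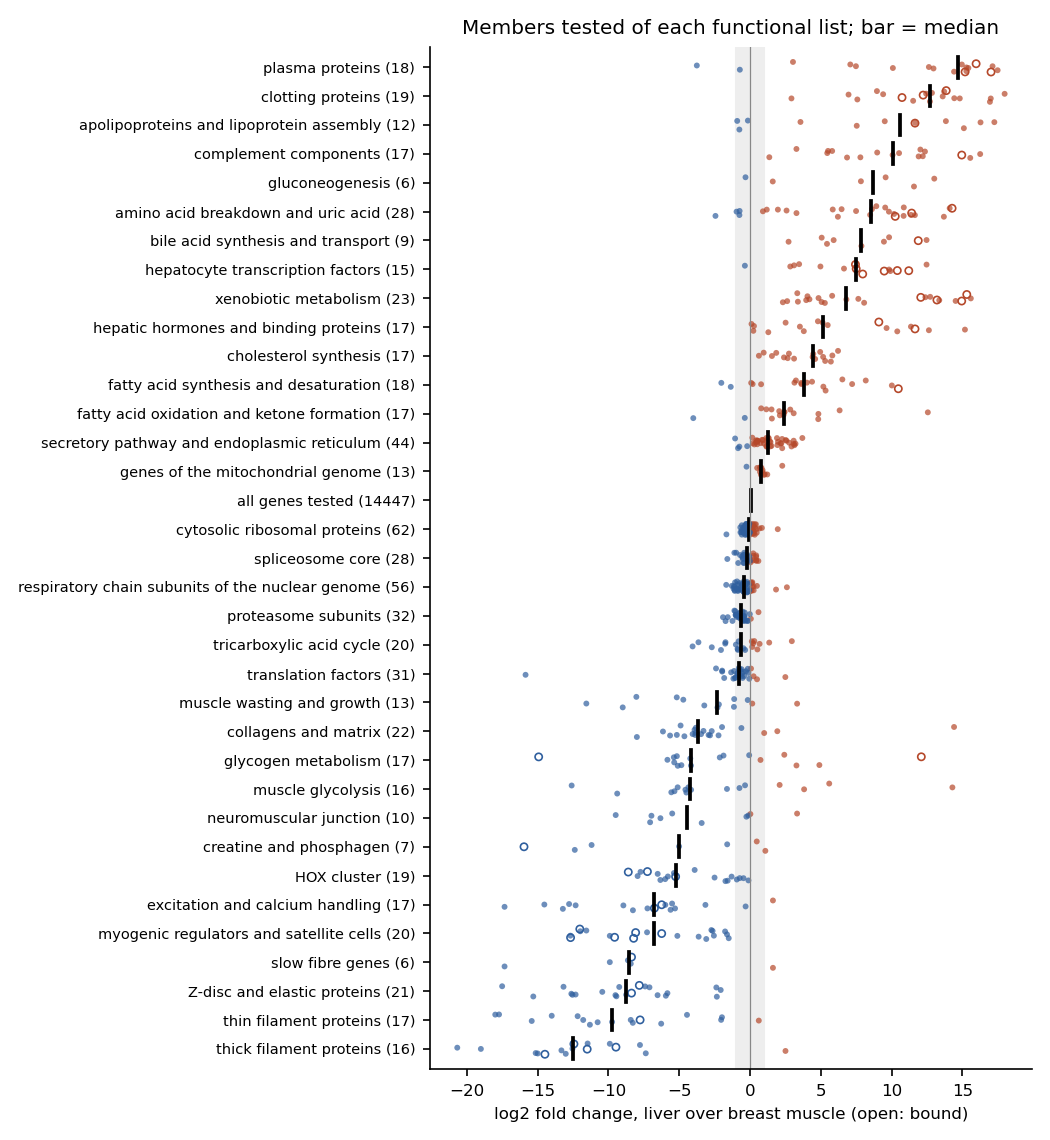
Log2 fold change of liver over breast muscle for each tested member of the functional lists with at least 6 tested members (number in brackets), with the list median as a bar, open circles for genes with no count in one tissue set at their bound, and a grey band for differences within 2-fold. Clotting and plasma proteins lie at the liver end and thick filament proteins at the muscle end, while ribosomal proteins lie in the grey band.

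Many functions were divided between a liver form and a muscle form of the same protein family. The forms were assigned by where each is mainly known from in mammals, and for several families that assignment is loose. Among them are lactate dehydrogenase and the glucose carriers, since LDHB is the heart form in mammals and SLC2A1 is found in many tissues. Of 20 families with both forms matched, 12 had the liver form higher and the muscle form lower in liver. Another 4 had both forms lower in liver, 1 had both higher, and 3 had a form that was not called or not tested. The fructose bisphosphatases lie side by side on chromosome Z. FBP1 (41459118 to 41469158, minus strand), which works in gluconeogenesis, had 573, 713 and 947 FPKM in liver and 1.99, 3.0 and 6.74 FPKM in muscle. FBP2 (41434019 to 41454584, minus strand), the muscle enzyme, had 0.227, 0.680 and 1.47 FPKM in liver and 623, 877 and 1070 FPKM in muscle. The neighbours were thus exchanged almost completely: FBP1 made up 99.8% to 100% of their joint FPKM in liver libraries and 0.194% to 0.929% in muscle libraries.

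The glycogen synthases divided in the same way. GYS2 had 30.5 to 54.1 FPKM in liver and no muscle count (at least 4370-fold higher in liver), and GYS1 had 2.26 to 3.36 FPKM in liver and 136 to 212 FPKM in muscle, a log2 fold change of -5.83 ± 0.10 (SE, adjusted p = 7.35e-21). The glycogen-targeting subunits of protein phosphatase 1 were split with PPP1R3B at 20.3 FPKM in liver and 2.11 FPKM in muscle, and PPP1R3A without a liver count and at 140 FPKM in muscle. Of the phosphofructokinases, the gate of glycolysis, PFKL averaged 36.5 FPKM in liver and 2.61 FPKM in muscle, and PFKM 0.836 FPKM in liver and 5273 FPKM in muscle. Lactate dehydrogenase was less clear-cut in liver, where LDHB made up 53.8% to 93.2% of the joint FPKM, against 0.154% to 0.423% in muscle.

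Translation elongation factor 1 alpha, needed in every cell, was also divided. EEF1A1 had 989, 1152 and 1530 FPKM in liver and 118, 209 and 306 FPKM in muscle, a log2 fold change of 2.49 ± 0.16 (SE, adjusted p = 5.35e-12). EEF1A2, the form known in mammals from muscle and nerve, had 0, 0.0229 and 0.114 FPKM in liver and 1824, 2348 and 2921 FPKM in muscle. EEF1A1 thus held 4.61% to 11.7% of the joint level in muscle. The carriers that exchange ADP and ATP across the mitochondrial membrane gave SLC25A6 at 323 FPKM in liver and 39.6 FPKM in muscle, and SLC25A4 at 38.9 FPKM in liver and 2009 FPKM in muscle. FABP1 and FABP3, which bind fatty acids, and SLC2A2 and SLC2A1, which carry glucose across the cell membrane, behaved likewise. AMP kinase gamma is the weakest of the 12 families in its liver form. PRKAG2 differed only a little, at 10.9 FPKM in liver and 8.30 FPKM in muscle, and counts as shared. Its call was lost in organic birds alone (log2 fold change 0.08, adjusted p = 0.664). The muscle form PRKAG3 had 0.732 FPKM in liver and 118 FPKM in muscle.

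Not every family was divided between its assigned forms. Both hexokinases were lower in liver, HK1 at 2.37 FPKM in liver and 112 FPKM in muscle, and HK2 at 12.9 FPKM in liver and 41.7 FPKM in muscle. Both glycerol-3-phosphate dehydrogenases of the glycerol phosphate shuttle were lower in liver, and GPD1, the cytosolic enzyme, had 6.60 FPKM in liver and 2919 FPKM in muscle. AMPD1 and AMPD3, the AMP deaminases, and both sodium pump beta forms were also lower in liver. The acyl-CoA synthetases ACSL5 and ACSL1, which activate fatty acids, were both higher in liver. PGAM1, the phosphoglycerate mutase named for non-muscle tissue in mammals, had 298 FPKM in liver and 6151 FPKM in muscle.

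**Figure D3:**
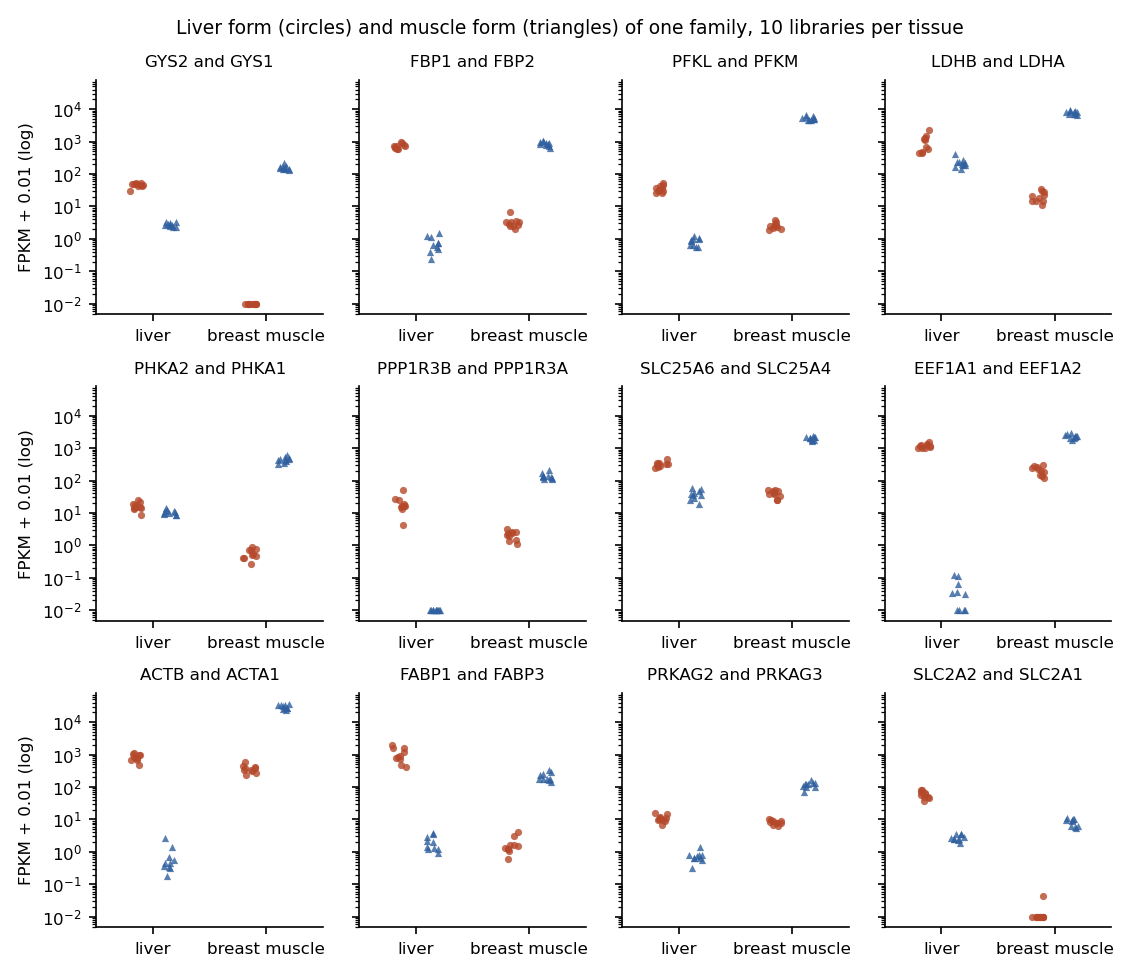
FPKM in each library after adding 0.01 (log axis) of the liver form (circles) and the muscle form (triangles) for the 12 families whose forms were called in opposite directions. In each panel liver is left and breast muscle right, and the form that is higher changes with the tissue. PHKA2 and PHKA1 lie close together in liver, where PHKA2 made up 50.7% to 72.1% of their joint FPKM.

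Among the lists, shared genes were most frequent in those of the ribosome and the spliceosome. Of 62 cytosolic ribosomal protein genes tested, 59 counted as shared (95.2%, against 30.0% of all genes tested). Their median log2 fold change was -0.07, with 10 higher and 21 lower in liver. This direction was not stable: scaling by library totals gave a median of 0.05 with 18 higher and 11 lower, the organic birds alone gave 0.08, the conventional birds alone gave -0.24, and leaving out conventional muscle library 1 gave 0.00. RPS10, of the small subunit, was lower in liver at 436, 500 and 667 FPKM, against 621, 832 and 1091 FPKM in muscle (log2 fold change -0.68 ± 0.11, SE, adjusted p = 5.09e-06), still within 2-fold. The 3 members not shared were RPL3, RPS21 and RPS28, with log2 fold changes of 1.96, 0.84 and -1.67. RPL3 had the largest difference, at 427 FPKM in the median liver library and 111 FPKM in the median muscle library. The SE of its log2 fold change was 0.13 (adjusted p = 1.03e-11).

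Outside the mitochondrial genome, the most abundant shared gene with a symbol in the table was GPX3, a secreted selenium-containing peroxidase. It had 1110, 1954 and 3443 FPKM in liver and 962, 1697 and 2065 FPKM in muscle. The groups overlapped, and the log2 fold change of 0.29 ± 0.18 (SE) had an adjusted p of 0.147, or 0.0318 with scaling by library totals. OAZ, the antizyme that limits polyamine synthesis, was also shared, with 615, 721 and 1172 FPKM in liver and 417, 546 and 664 FPKM in muscle.

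Spliceosome core genes were nearly as even, with 24 of 28 shared, 7 higher and 14 lower in liver, and a median of -0.23. Proteasome subunits leaned toward muscle: 27 of 32 were lower and 1 higher in liver, with a median of -0.61, and 19 were shared. PSMB4, of the core particle, had 102, 114 and 169 FPKM in liver and 138, 189 and 225 FPKM in muscle (log2 fold change -0.61 ± 0.09, SE, adjusted p = 3.04e-06). PSMD4 and PSMD7, of the regulatory cap, differed by more, with log2 fold changes of -1.91 ± 0.12 and -1.57 ± 0.10 (SE). Of 31 translation factors 24 were lower and 3 higher in liver, with a median of -0.75 and 18 shared.

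The lists of mitochondrial energy metabolism differed from each other. Of 56 nuclear genes for respiratory chain subunits 40 were shared, 39 were lower and 4 higher in liver, and the median was -0.43. ATP5F1B, of ATP synthase, had 203, 255 and 356 FPKM in liver and 227, 291 and 377 FPKM in muscle and was not called (adjusted p = 0.194). The genes of the mitochondrial genome ran the other way, with 12 of 13 higher and none lower in liver, a median of 0.80 and 3 shared. COX1, of cytochrome oxidase, had 10317, 13306 and 19734 FPKM in liver and 5309, 7143 and 9590 FPKM in muscle, a log2 fold change of 0.99 ± 0.15 (SE, adjusted p = 2.09e-06). The mitochondrial genome took 5.79% to 14.2% of the counts in liver libraries and 3.27% to 5.60% in muscle libraries. In the tricarboxylic acid cycle 12 of 20 genes were lower and 5 higher in liver, with a median of -0.63 and 7 shared, near the share of all genes tested. The succinyl-CoA ligase subunits split: SUCLA2, of the ATP-forming enzyme, had 5.09 FPKM in liver and 84.6 FPKM in muscle, and SUCLG2, of the GTP-forming enzyme, 28.5 FPKM in liver and 3.71 FPKM in muscle.

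The secretory pathway, though present in every cell, was higher in liver in 38 of 44 genes and lower in 3, with a median of 1.24, and 12 genes were shared. HSP90B1, a chaperone of the endoplasmic reticulum, had 386, 559 and 1177 FPKM in liver and 46.4, 70.6 and 93.6 FPKM in muscle, a log2 fold change of 3.13 ± 0.14 (SE, adjusted p = 8.14e-15). P4HB, the protein disulfide isomerase, had 364, 484 and 637 FPKM in liver and 47.0, 55.9 and 80.0 FPKM in muscle. The vesicle coat gene COPA was at 24.5 FPKM in liver and 17.4 FPKM in muscle, and the signal recognition particle subunit SRP9 was lower in liver at 7.97 FPKM, against 16.5 FPKM in muscle.

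Markers of cell types are given list by list. Of all genes tested, 42.4% were higher and 39.0% lower in liver, so calls in such a list are common. Mixed counts, such as those of endothelium and of nerve below, are not read as results about those cells. The hepatocyte markers summed to 60085 to 102470 FPKM in liver and 255 to 1285 FPKM in muscle. In muscle APOA1 alone made up nearly all of that sum, and the other 9 markers averaged under 1 FPKM each. The muscle fibre markers summed to 0.547 to 3.50 FPKM in liver and 65957 to 93934 FPKM in muscle, and all 6 were called.

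All 14 macrophage markers were higher in liver, with a median of 3.67 and sums of 812 to 1580 FPKM in liver and 212 to 617 FPKM in muscle. MARCO, a scavenger receptor of liver macrophages, had 124, 162 and 285 FPKM in liver and 0.0327, 1.53 and 5.08 FPKM in muscle, a log2 fold change of 6.64 ± 0.47 (SE, adjusted p = 4.84e-10). The chaperone of class II histocompatibility molecules, Ii, differed less, at 459 FPKM in liver and 277 FPKM in muscle. Its ranges overlapped, with 243 to 650 FPKM in liver and 175 to 533 FPKM in muscle. In conventional birds alone its log2 fold change was 0.70 and the call was lost (adjusted p = 0.0665). All 14 markers of T and natural killer cells (median 2.42) and all 7 of B cells (median 1.56) were higher in liver as well. The B cell calls were less stable. Without organic liver library 4, and in organic birds alone, 6 of 7 were called higher. In conventional birds alone 4 of 6 were. GNLY, a cytolytic granule protein, had 86.3 to 285 FPKM in liver and 5.02 to 18.7 FPKM in muscle, and CD3E, of the T cell receptor complex, 15.1 to 38.1 FPKM in liver and 1.93 to 6.55 FPKM in muscle.

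Of 7 cholangiocyte markers 5 were higher and 1 lower in liver. EPCAM and KRT19, of bile duct epithelium, averaged 55.4 and 1.65 FPKM in liver and 0.0775 and 0.00457 FPKM in muscle. CFTR ran the other way. Its log2 fold change was -3.29 without organic liver library 4 and -3.12 without conventional muscle library 1. Of 13 endothelial markers 7 were higher and 3 lower in liver, with a median of 0.91. STAB2 and LYVE1, which mark liver sinusoids, averaged 4.77 and 22.0 FPKM in liver and 0.105 and 2.06 FPKM in muscle. VWF, known from larger vessels, had 2.92, 7.23 and 12.4 FPKM in liver and 15.8, 20.3 and 22.9 FPKM in muscle. It was lower in all liver libraries than in any muscle library, with a log2 fold change of -1.36 ± 0.19 (SE, adjusted p = 1.39e-06).

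Of 13 markers of fibroblasts and stellate cells 9 were lower and 4 higher in liver, with sums of 79.6 to 181 FPKM in liver and 2027 to 4995 FPKM in muscle. The 4 higher in liver were TCF21, HAND2, LRAT and RELN, and LRAT, which stores vitamin A as its ester in stellate cells, averaged 3.99 FPKM in liver and 0.207 FPKM in muscle. Of 9 adipocyte markers 4 were higher and 3 lower in liver, shares near those of all genes tested. The hormone gene ADIPOQ had 0.299, 0.492 and 1.38 FPKM in liver and 23.3, 34.1 and 66.0 FPKM in muscle (log2 fold change -5.84 ± 0.24, SE), and FABP4 1.03 FPKM in liver and 15.8 FPKM in muscle. CD36, which takes up fatty acids in several cell types, ran the other way at 97.7 FPKM in liver and 7.31 FPKM in muscle.

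Of 7 erythrocyte markers 5 were higher in liver, with a wide spread in both tissues. HBA1, of haemoglobin, had 104, 154 and 665 FPKM in liver and 29.8, 48.2 and 364 FPKM in muscle. The ranges overlapped through organic muscle libraries 4 and 5, at 364 and 117 FPKM, and in the organic birds alone the call was lost (adjusted p = 0.10). Of 7 markers of thrombocytes and heterophils 5 were higher and 1 lower in liver, of 8 markers of smooth muscle and pericytes 2 were higher and 6 lower, and of 6 markers of nerve and Schwann cells 1 was higher and 3 lower. The smooth muscle sum in muscle was mostly DES, the desmin of muscle fibres, at 9.30 FPKM in liver and 1578 FPKM in muscle. Markers of pancreas, gut and kidney were near 0 in both tissues, with 3 of 11 matched genes high enough to be tested and sums of at most 2.85 FPKM in liver and 2.92 FPKM in muscle. The part of these other cells in the tissue differences above was not tested.

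**Figure D4:**
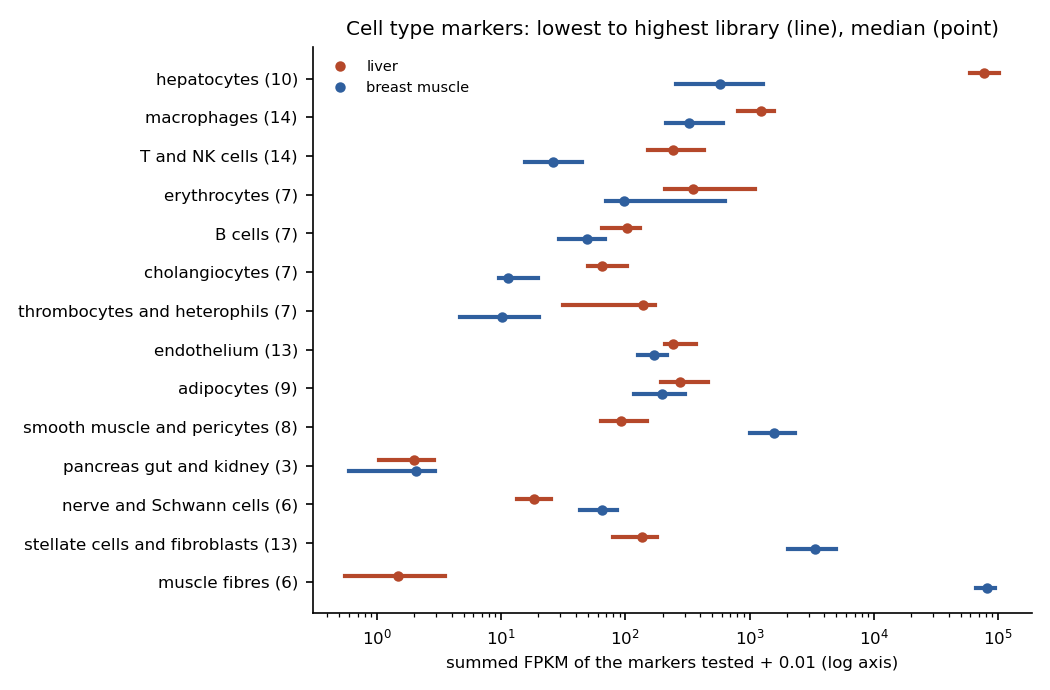
Summed FPKM of the matched markers of each cell type after adding 0.01 (log axis). The line runs from the lowest to the highest and the point lies at the median of 10 libraries of liver and of breast muscle. The sums include matched markers too low to be tested, though the axis names the markers tested, and the numbers in brackets count the tested ones. Hepatocyte and muscle fibre markers separate the tissues by far, while adipocyte markers and those of pancreas, gut and kidney overlap.

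Within a tissue, single libraries set some of the levels above, and the genes of this paragraph and the next were chosen after their values were seen. FASN, the fatty acid synthase, had 273 FPKM in organic liver library 1 and 187 FPKM in organic liver library 4, and 9.68 to 67.5 FPKM in the other 8 liver libraries. ME1 had 261 and 94.8 FPKM in these 2 libraries and 8.99 to 47.7 FPKM in the others. CPT1A, which admits fatty acids to mitochondrial oxidation, was lowest in the same libraries at 23.2 and 21.4 FPKM, against 56.2 to 197 FPKM in the others. PCK1 had 0.322 and 0.908 FPKM there, but was also low in conventional liver library 5 at 0.870 FPKM. The fatty acid synthesis list summed to 3704 FPKM in organic liver library 1, the highest of the liver libraries. Organic liver library 4 also had the highest share of mitochondrial counts, and the lowest FGB. Without it the fatty acid synthesis list kept its counts of 14 higher and 2 lower in liver.

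Conventional muscle library 1 stood apart in genes of slow fibres. MB, the oxygen-storing myoglobin, had 99.8 FPKM there and 0.548 to 8.88 FPKM in the other 9 muscle libraries. MYH7B, a slow-type myosin heavy chain, had 73.7 FPKM there and 0.0315 to 5.34 FPKM in the others, and MYOZ2, CSRP3 and LMOD2 were likewise highest there. TNNC1, the troponin C of slow and heart muscle in mammals, was not: it had 3953 FPKM there and 3410 to 5360 FPKM in the others, and 2.60 to 33.6 FPKM in liver. Of 6 slow fibre genes tested 5 were lower and 1 higher in liver, with a median of -9.00 (-8.52 with the member at 0 in liver at its bound) and of -7.27 without that library. DESeq2 called 3 of them lower in liver and gave no adjusted p for 2.

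**Figure D5:**
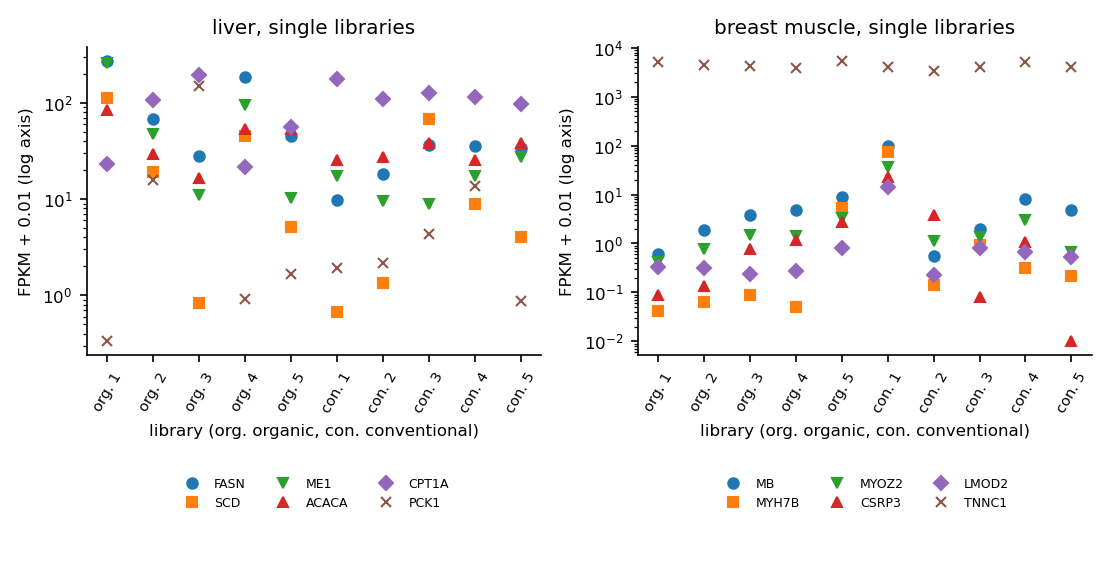
FPKM after adding 0.01 (log axis) in each liver library (left) and each breast muscle library (right), with organic libraries 1 to 5 before conventional libraries 1 to 5 and a symbol per gene. FASN and ME1 are highest and CPT1A is lowest in organic liver libraries 1 and 4, SCD is highest in organic liver library 1 and second in conventional liver library 3 at 68.2 FPKM, and MB, MYH7B, MYOZ2, CSRP3 and LMOD2 are high in conventional muscle library 1, where TNNC1 is not.

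No gene was called for a tissue difference that differed between the raising systems. With 5 libraries per tissue and system, a lack of calls does not show that the differences were equal. Within organic birds 5011 genes were higher and 4708 lower in liver, and within conventional birds 5124 were higher and 4840 lower. The interaction of tissue and system gave 0 calls (0.00%) in edgeR, with 771 genes at an unadjusted p under 0.05 and a smallest adjusted p of 0.816, and 0 calls in DESeq2, with 869 such genes and a smallest adjusted p of 0.0641.

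Reads of a gene and of an annotated gene that overlaps it cannot be told apart here, because no label or header states whether counting used strand. Among the genes named by rule, this applies to VTN, HPD, EPCAM, C3, HMGCS1, PFKL, HADHB, GNLY, PRKAG2, HK2, BDH1A, COL3A1, DES, ADIPOQ, TRIM63, CASQ2, AMPD3, ASL2 and MYH15. Classic members such as CKM, TTN, RYR1, ATP2A1, PYGL and PYGM had no row matched by symbol and are not analysed here.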

How the data were processed

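RNA sequencing libraries of liver and breast muscle were made from TRIzol-extracted total RNA, per the labels' protocols. The authors deposited raw counts, as whole numbers, beside FPKM, for 27170 genes in 20 libraries. HISAT2 2.0.5, DESeq2 1.20.0 and the build GRCg6a are named in the submitters' processing notes, with no role given; for the counting tool and its use of strand, the labels and file headers have no entry. The deposited FPKM equal the count per length divided by a factor of each library that runs parallel to its median-of-ratios size factor, so FPKM are scaled that way and not to total reads (factor over total 0.824 to 1.19). Coordinates are those of the table.

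Groups were taken from the sample titles. Counts were tested in edgeR 4.0.16 (R 4.3.3) with TMM scaling, a filter on low counts (filterByExpr, minimum count 10, which left 14447 genes and removed 12723), robust quasi-likelihood fits with raising system as covariate, and Benjamini-Hochberg adjustment over all genes tested. SE are Wald errors of the same fit. The script was tested on simulated counts with known fold changes. That simulation left most genes unchanged, so it could not test the scaling and calls where most genes differ, as here. Of 13482 genes without a symbol in the table, 725 were given one from RefSeq. Of 992 list symbols 855 were matched.

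Named genes were the 12 largest differences in each direction among marking genes at 100 FPKM or more, the 10 most abundant genes of each tissue and of the shared class, per list the 3 most abundant members and the 1 member most against the list's direction, both forms of each family, and 5 genes of the interaction. These rules took only genes with a symbol in the table. Other genes named were chosen after their values were seen. The members, lists and tests were chosen with earlier results of these data known. Alternatives were DESeq2 1.42.0, limma 3.58.1 on log2(FPKM + 1) and log2(FPKM + 0.1), other scalings, filters and thresholds, each system alone, a replicate block and leaving out each library. A planned count of promoter motifs was not run, since no promoter sequences were used here, and no sequence is printed. Results of some genes of the lists are not reported here.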

Additional observations from a re-analysis of the deposited data

Results flagged for a closer look

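The levels of the genes named by rule and reported here were checked in each tissue, in 346 sets of 10 libraries. A library was flagged if its gap to the nearest of the others was over 0.466 of the whole range. Gap and range were taken on log2 depth-scaled counts, so the FPKM given below need not show the same ratio. Such a gap was found in 23 sets, not far above the share of about 1 in 20 that chance gives. The library with the gap is given here with the range of the other 9, in FPKM.

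Organic liver library 4 was lowest in 9 of these sets, all of genes of liver secretion or metabolism. FGA had 3207 there and 5557 to 9728 in the others, FGB 4038 and 7184 to 13102, and FGG 3203 and 5546 to 10422. ORM1 had 1989 there and 4716 to 7233 in the others, APOB 177 and 243 to 306, and C3 860 and 1420 to 2014. C8A had 194 there and 345 to 558 in the others, AGT 135 and 223 to 361, and GYS2 30.5 and 41.3 to 54.1. The same library had the highest share of mitochondrial counts, 14.2%, and what this has to do with its low levels was not tested. Each of these genes stayed far above its muscle level in it.

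Other liver libraries stood apart in single genes. Organic liver library 1 was lowest in GPD2 (1.17, others 2.08 to 3.23), and organic liver library 5 in the B cell adaptor BLNK (4.79, others 6.32 to 8.40). Conventional liver library 1 was lowest in the immunoglobulin joining chain JCHAIN (1.92, others 11.3 to 24.9), and organic liver library 2 was highest in the splicing factor SF3B4 (33.1, others 21.8 to 27.1).

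In muscle, conventional library 1 was highest in ATP2A2 (20.5, others 2.90 to 6.94), TPM3 (33.2, others 10.3 to 17.4) and RPLP1 (1448, others 768 to 1052). Organic muscle library 1 was highest in PGM1 (4290, others 2976 to 3511), PKM (9399, others 6161 to 7338), SDHC (211, others 136 to 170) and PRPF19 (57.7, others 39.4 to 47.5). Conventional muscle library 3 was highest in FBP1 (6.74, others 1.99 to 3.52) and AMACR (13.1, others 6.33 to 8.86), both higher in liver, and conventional muscle library 5 in the macrophage protease CTSS (25.7, others 10.3 to 16.7). RPLP1 was called lower in liver (log2 fold change -0.27, adjusted p = 0.0383), and without conventional muscle library 1 it was -0.19 with an adjusted p of 0.0788. It was also above 0.05 with the replicate number as a block (adjusted p = 0.0612) and with scaling by library totals (adjusted p = 0.238), in organic birds alone (adjusted p = 0.547), and without organic liver library 3 or 5, any 1 of the conventional liver libraries, organic muscle library 4 or conventional muscle library 4 (adjusted p 0.0505 to 0.0717).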

How the results depend on the processing

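Counts of genes higher, lower, marking or shared stayed within 1.5 times of those reported under the other scalings, without a filter, without the covariate, without mitochondrial genes, in each system alone, with DESeq2 and with limma on log2(FPKM + 0.1). They moved further in 6 cases: limma on log2(FPKM + 1), which shrinks low genes by construction, gave 1314 genes marking liver and 1137 marking muscle, a threshold of 2-fold gave 3710 and 3270, shared genes numbered 2749 at 5 FPKM or more, and 2026 with an interval within 1.5-fold. Leaving out each library gave 6120 to 6244 genes higher in liver, 5642 to 5722 lower, 2163 to 2211 marking liver, 1842 to 1861 marking muscle, 4230 to 4326 shared and 0 interaction calls. Scaling by library totals moved the median of all genes by 0.13 to 0.20, with 56.3% of calls higher in liver, against 52.1% in the reported fit.

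Same-numbered liver and muscle libraries of a system correlated at 0.0657 to 0.255 in their deviations from group means (9 of 10 pairs over 0.1), and 19 of 20 libraries correlated best with their own number, which is a hint from the data and not part of the design. The labels do not pair them. With the replicate number as a block, 6153 genes were higher and 5658 lower in liver, 2203 marked liver, 1843 marked muscle, 4365 were shared and 0 had an interaction.

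Over the named genes, 6676 recomputed values kept direction and side of the threshold, 59 lost the threshold, 16 gained it and none changed direction. Those that moved with a single library were AMY2A, GCG, CSF3R, RPLP1 and SLC37A4. Depth limits the ratios of genes with at most 3 counts in a tissue, whose intervals span more than 10-fold.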

Other observations

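Genes without a reference annotation were outside the lists. The table holds 2814 loci named as new by the submitters, of which 919 were tested, 180 marked liver, 157 marked muscle and 85 were shared. Some carry a protein match in the table, and those given here were chosen after their values were seen. A locus matched to telethonin, the cap of titin at the Z-disc, averaged 0.213 ± 0.350 FPKM in liver and 1809 ± 385 FPKM in muscle (SD, n = 10 each), with a log2 fold change of -13.02 ± 0.48 (SE). A pair of loci matched to the fast muscle calcium pump had no liver count and averaged 199.5 and 111.8 FPKM in muscle. A locus matched to complement component C2 averaged 210 ± 38.9 FPKM in liver and 2.33 ± 0.609 FPKM in muscle (SD, n = 10 each), with a log2 fold change of 6.51 ± 0.14 (SE).

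Genes that mark a tissue were less even between libraries of that tissue, both systems together, than shared genes. This is a description over genes with a symbol in the table and 100 FPKM or more. The shared class requires a narrow interval of the difference, which leaves out uneven genes, so the class rule itself favours this contrast. The median coefficient of variation among the 10 libraries was 26.3% for 239 liver-marking genes in liver, 22.3% for 216 muscle-marking genes in muscle, and 17.0% in liver and 17.3% in muscle for 126 shared genes. In liver it ran from 9.68% for GOLIM4, a Golgi membrane protein, to 134% for THRSP. The metal-binding protein MT3 followed at 126%, with 9.26 FPKM in the lowest, 60.4 in the median and 438 in the highest liver library.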
